A study of Mus musculus with 5 samples.

Results

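The guanylate-binding proteins (Gbp genes) are a family of large GTPases of innate immunity, and their transcripts were followed here in single cells of the mouse heart and of the lymph nodes that drain it. The members were the rows of the deposited matrices whose gene symbol was Gbp2, Gbp3, Gbp4, Gbp5, Gbp6, Gbp7, Gbp8, Gbp9 or Gbp10, which gave 9 of the 31053 genes in each library. Gbp2b was measured but was no member, and Gbp11, annotated as a polymorphic pseudogene, has no row in the matrices.

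All mice were C57BL/6. One heart library came from mice aged 2 months and one from mice aged 18 months, each labelled as non-cardiomyocytes, under the broader label Lymphocyte. The third library pooled T cells, described as CD44-high CD4+ and CD8+, from mediastinal lymph nodes of mice aged 2, 6, 12 and 18 months, in which the cells carry 8 antibody hashtags. According to the labels a supplementary table gives the age behind each hashtag. It was not used here, so the lymph node cells are described by cell state and hashtag, with no comparison of ages. With 1 library per age, the heart comparison has no replicate check, no p-value is given, and every interval covers counting error only.

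Expression of the Gbp genes is low in most resting cells and is induced by interferon gamma, which signals through its receptor and the kinases Jak1 and Jak2. Promoters of its target genes hold gamma-activated sites (GAS) and interferon-stimulated response elements (ISRE), the latter bound by interferon regulatory factors such as Irf1. The proteins assemble on vacuoles that hold intracellular pathogens and on bacteria, where they act with the immunity-related GTPases and the Atg8 conjugation system and promote inflammasome activation. Some members carry a prenylation signal that anchors them in membranes.

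The genes lie in 2 clusters (GENCODE M21 annotation, build GRCm38). Gbp5, Gbp7, Gbp3 and Gbp2 follow each other on the plus strand of chromosome 3, between 142493978 and 142638008, with Gbp2b between Gbp3 and Gbp2. Gbp8, Gbp9, Gbp4, Gbp10 and Gbp6 lie on the minus strand of chromosome 5, between 105014150 and 105293698. The gene models of Gbp8, Gbp9 and Gbp4 overlap on that strand. RefSeq promoter entries (build GRCm38.p6) were found for the 4 members on chromosome 3 and are printed because a match to an interferon-response motif lies close to the start of each. The printed windows are chr3:142620513-142620631 for Gbp2, chr3:142559894-142560043 for the first of 2 entries of Gbp3, chr3:142496784-142496929 for Gbp5 and chr3:142530186-142530335 for Gbp7, all 5′ to 3′ on the plus strand. Capitals mark matches to the ISRE-like letters (GAAA, any 2 bases, GAAA, read on the other strand as TTTC, any 2 bases, TTTC) and to the GAS-like letters TTCNNNGAA, which read alike on both strands.
Gbp2: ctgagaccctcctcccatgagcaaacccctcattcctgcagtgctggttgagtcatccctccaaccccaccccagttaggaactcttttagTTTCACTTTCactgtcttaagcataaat
Gbp3: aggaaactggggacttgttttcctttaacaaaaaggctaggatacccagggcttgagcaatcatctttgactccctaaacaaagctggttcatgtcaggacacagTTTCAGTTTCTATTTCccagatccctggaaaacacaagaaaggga
Gbp5: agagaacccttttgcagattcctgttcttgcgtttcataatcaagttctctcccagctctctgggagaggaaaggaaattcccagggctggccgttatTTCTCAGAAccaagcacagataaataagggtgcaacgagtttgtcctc
Gbp7: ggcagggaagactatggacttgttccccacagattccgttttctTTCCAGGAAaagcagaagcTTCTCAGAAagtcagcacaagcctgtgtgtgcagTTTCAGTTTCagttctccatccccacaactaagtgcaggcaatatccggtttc
Distances are to the start of the RefSeq entry, which for Gbp2, Gbp3 and Gbp5 lies downstream of the start of the GENCODE gene model. In Gbp2 the ISRE-like match began 59 bases before that start, inside the GENCODE model. Gbp3 held a pair of overlapping ISRE-like matches, beginning 45 and 39 bases before it. Gbp7 held an ISRE-like match at 53 bases and GAS-like matches at 106 and 87 bases. Gbp5 held a GAS-like match at 52 bases, which also lies inside its GENCODE model. The second entry of Gbp3 held neither motif in its upstream part. Of all 32851 mouse promoter entries, 1.59% held the ISRE-like letters and 4.09% the GAS-like letters in an upstream part of 150 bases. A match describes the letters only.

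Reads from such a family can be hard to assign to one copy. Of all 90-base stretches of the Gbp10 transcripts, 75.2% also occurred in another gene, and for Gbp6 the share was 65.6%, in both cases mostly in the gene Gm43302. The share was 10.5% for Gbp7, 5.67% for Gbp8 and at most 2.21% for the other 5 members. Values of Gbp10 and Gbp6 are therefore uncertain, and values of the 3 overlapping chromosome 5 models carry the same caution.

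The heart libraries gave 10914 cells at 2 months and 7828 cells at 18 months after filtering, with 102757089 and 53789508 unique molecular identifiers (UMIs, which count captured RNA molecules) and median depths of 8041 and 4374 UMIs per cell. The lymph node library gave 9818 cells with 38577813 UMIs and a median of 2890. Member UMIs numbered 20712, 13519 and 13488 in the 3 libraries. The 2 heart libraries shared 42 cell barcodes. Cells were clustered without the Gbp genes and their pathway genes, and clusters were named from marker genes, so each class name below stands for cells like that type. Clusters that no name fitted held 9.57% and 8.56% of heart cells and 23.6% of lymph node cells. In the hearts, 834 cells carried cardiomyocyte markers despite the label, and the lymph node T cell pool held 828 B cells and 412 myeloid cells. Levels are given as CPM, the UMIs of a gene scaled to a common total of UMIs in each class, so that classes of different size and depth share 1 scale. UMIs are not divided by transcript length, so that ranks between members compare captured molecules.

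Vascular endothelial cells carried by far the most Gbp RNA of the heart classes. Their 9 members summed to 1115 CPM (8616 UMIs, 95% Poisson interval 1092 to 1139) at 2 months and 834 CPM (5336 UMIs, 812 to 857) at 18 months. T cells came next among the 12 classes with at least 50 cells in both libraries, at 312 and 328 CPM, followed by group 2 innate lymphoid cells (ILC2) at 283 and 275 CPM. The intervals of T cells and ILC2 overlapped in both libraries. Monocytes, dendritic cells, macrophages, B cells, fibroblasts, pericytes and neutrophils held between 89.0 and 262 CPM, smooth muscle cells 54.2 and 75.9 CPM, and cardiomyocytes 20.6 and 33.1 CPM. Natural killer cells (45 and 79 cells) stood at 343 and 355 CPM, and a class with endocardial markers (49 and 155 cells), led also by the lymphatic genes Ccl21a and Mmrn1, at 276 and 380 CPM.

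**Figure D1:**
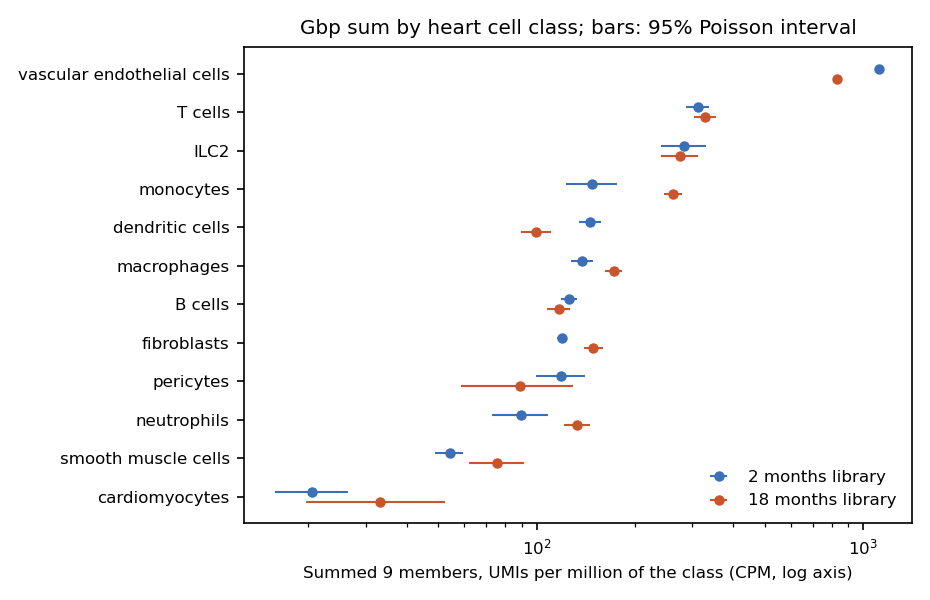
Summed CPM of the 9 Gbp genes (log axis) in 12 heart cell classes, with the 2-month library in blue, the 18-month library in orange and bars for the 95% Poisson interval. Vascular endothelial cells sit at 1115 and 834 CPM, above every other class, while cardiomyocytes sit lowest at 20.6 and 33.1 CPM.

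With each cell thinned to 1000 UMIs, 54.9% of endothelial cells held at least 1 member UMI at 2 months (interval 52.9 to 56.9%) and 47.7% at 18 months (45.5 to 49.8%), at median depths of 2313 and 2336.5 UMIs. Without thinning the shares were 76.4% and 68.8%. Thinning left out 355 and 305 endothelial cells with fewer UMIs. In cardiomyocytes, the lowest class, the thinned shares were 1.11% and 3.31% at median depths of 3044 and 2359 UMIs. RNA free in the suspension, estimated from markers of other lineages, would account for 1.43% and 2.01% of the endothelial sum but for 63.8% and 77.5% of the cardiomyocyte sum, so no Gbp expression of cardiomyocytes can be read from these libraries. Thinned shares of the other classes ran from 3.78% in 2-month smooth muscle cells to 26.0% in 18-month T cells.

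The mix of members differed between cell classes. In endothelial cells Gbp7 made up 31.6% and 32.0% of member UMIs at 2 and 18 months, Gbp4 26.1% and 24.1%, and Gbp9 13.6% and 14.6%. Fibroblasts were dominated by Gbp2 (36.7% and 36.3%) and Gbp7 (32.9% and 33.6%), while Gbp4 gave 1.76% and 2.69%. The members on chromosome 3 thus held 58.9% and 59.7% of member UMIs in endothelial cells but 90.1% and 87.7% in fibroblasts and 91.6% and 93.4% in smooth muscle cells. T cells lay at the other end, with 44.6% and 45.5%, and carried much of their Gbp RNA as Gbp4 (28.3% and 25.5%). In B cells this share was 74.1% (exact interval 71.5 to 76.5%) at 2 months and 57.8% (53.6 to 61.9%) at 18 months, and in cardiomyocytes it was 67.7% and 88.9% on 62 and 18 UMIs.

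In endothelial cells 7 of the 8 measured members were lower at 18 months, and none of the 8 reached the call rule. A gene was measured in a class with at least 20 UMIs over both libraries, and was called higher or lower where its CPM differed by at least 1.5-fold and the exact 95% binomial interval of the log2 ratio left out 0. By the same rule 5.1% of all 12254 measured endothelial genes were higher and 4.11% lower. The summed log2 ratio of 18 over 2 months was -0.42 (interval -0.47 to -0.37), and the median over the 8 members was -0.42 beside -0.01 over all genes. Gbp7, which has been linked to vacuole rupture and to the NADPH oxidase, stood at 352 CPM (2720 UMIs) and 267 CPM (1705 UMIs), a log2 ratio of -0.40 (-0.49 to -0.31). Gbp4 stood at 291 and 201 CPM (log2 ratio -0.53, interval -0.63 to -0.43), and Gbp5, known for promoting Nlrp3 inflammasome assembly, at 105 and 71.8 CPM (-0.56, interval -0.72 to -0.39). Both were higher in the 2-month library, with Poisson intervals that did not overlap. Gbp3 stood at 90.1 and 63.5 CPM (-0.51), Gbp9 at 151 and 121 CPM (-0.32) and Gbp6 at 14.9 and 10.9 CPM (-0.44). Gbp2, a prenylated member recruited to parasite and bacterial vacuoles, differed least, at 109 and 96.2 CPM (-0.18, interval -0.33 to -0.03). Gbp8 went the other way with few molecules, 7 UMIs at 2 months and 15 at 18 months, and Gbp10 gave 5 UMIs and 1 UMI.

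The lower endothelial level was found in each endothelial cluster. The sum had a log2 ratio below 0, with an interval below 0, in 5 of 5 clusters, from -0.51 to -0.18. It was 1226 and 902 CPM in the largest cluster, led by Kdr and Btnl9, and 796 and 631 CPM in a cluster led by the arterial genes Sema3g, Sox17 and Gja5. Gbp3, Gbp4, Gbp5 and Gbp7 were below 0 in 5 of 5 clusters, and Gbp2 and Gbp9 in 4 of 5. The smallest difference was in the cluster led by Aqp1 and Aplnr, at 1296 and 1146 CPM. One cluster had a median depth of only 922 and 888 UMIs, and without it the summed ratio was -0.41. The endothelial RNA was spread over many cells: the 5 cells richest in Gbp UMIs held 3.27% of them at 2 months and 2.96% at 18 months.

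**Figure D2:**
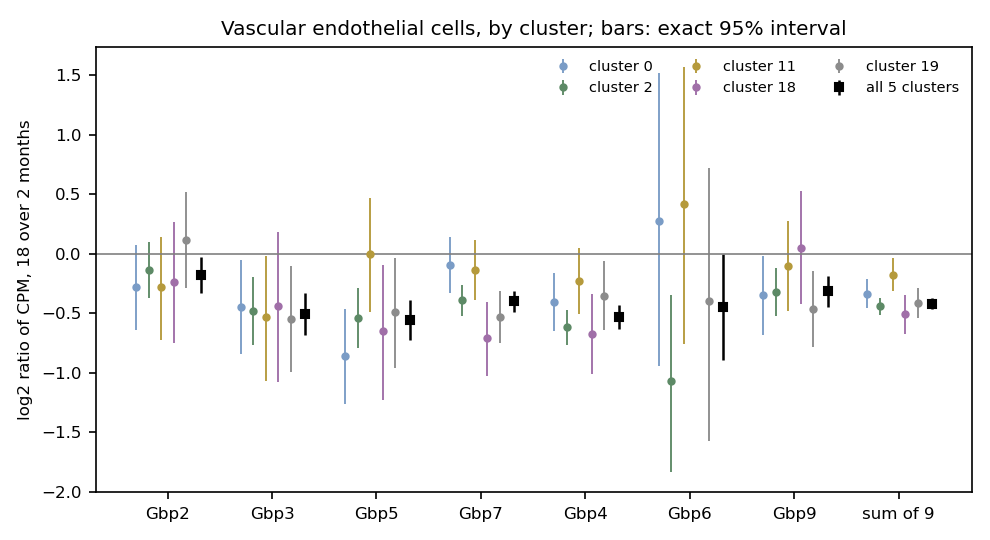
Log2 ratio of CPM at 18 over 2 months for 7 members and the sum of 9 in each of the 5 vascular endothelial clusters (colours) and in all of them (black squares), with exact 95% binomial intervals as bars. Ratios of the sum lie between -0.51 and -0.18 in the 5 clusters, and the wide bars of Gbp6 reflect its few UMIs.

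Related genes did not all follow in endothelial cells. Of 7 measured immunity-related GTPases, 2 were called lower, Igtp (69.1 and 42.5 CPM) and Tgtp1 (14.6 and 8.44 CPM), and 1 higher, Gm4951 (8.67 and 18.4 CPM), with a list median of -0.46. Iigp1, the most abundant of them, stood at 287 and 195 CPM (log2 ratio -0.56, interval -0.66 to -0.46). Among 12 measured genes of interferon gamma, its receptor and its signalling, Irf8 (13.5 and 27.8 CPM) and Batf2 (4.01 and 6.57 CPM) were called higher and the feedback inhibitor Socs1 (19.9 and 11.7 CPM) lower. Irf1 stood at 179 and 146 CPM and Ifngr1 at 241 and 242 CPM. Of 10 other interferon gamma targets only Ciita, the class II transactivator, was called, higher at 4.79 and 11.9 CPM. Of 6 measured inflammasome genes 3 were called higher: Casp1 (10.2 and 22.4 CPM), Aim2 (3.88 and 9.07 CPM) and Il1b (20.2 and 79.4 CPM). Neutrophils, which are rich in Il1b RNA, numbered 212 and 918 cells, and their part in these values was not tested. The 10 Atg8 conjugation genes and 5 prenylation genes gave no call, and their medians were -0.08 and -0.05. Of 12 type I interferon-stimulated genes 1 was called, Mx1, higher at 1.29 and 4.53 CPM (10 and 29 UMIs), with a list median of -0.37. The type I list summed to 1769 and 1376 CPM. Its abundant genes Rsad2 (415 and 297 CPM) and Isg15 (182 and 129 CPM) had log2 ratios of -0.49 and -0.50. Beside Mx1 only Oas1a, at 0.04, had a log2 ratio above 0. Of 13 dissociation stress genes, Hsp90aa1 was called lower (log2 ratio -0.71) and Egr1 higher (1.03). The 11 uncalled genes ran from -0.58 to 0.58. Hspa1a and Hspa1b stood at -0.58 and Dnajb1 at -0.51, while Junb stood at 0.39, Ier2 at 0.43 and Ier3 at 0.58. The list median was -0.17. The list summed to 4904 and 4526 CPM, and its part in the Gbp values was not tested.

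Over all 12 classes, 9 of the 67 measured member and class pairs were called higher at 18 months and 6 lower, with 41 log2 ratios above 0 and 26 below. Over all genes and classes 6.91% of pairs were called higher and 5.03% lower. Over the alternatives tried these counts ran from 2 to 17 higher and from 2 to 10 lower: thinned cells gave 2 and 2, the authors' filter 11 and 2, cells with Xist and no Y-linked UMIs 17 and 3, and cells with Y-linked UMIs and no Xist 5 and 10. The 67 pairs and both shares over all genes belong to the main setting. Neither is given for the alternatives, so their counts are not read as a result about the Gbp genes. The difference between classes was not tested, since there is 1 library per age. The libraries held cells with Xist and cells with Y-linked transcripts, so cells of both sexes were present in each; the labels do not say how many mice gave a library. Shares of these cells differed between the libraries in several leukocyte classes, in smooth muscle cells and in pericytes. Values within each kind of cell are given for some classes.

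In fibroblasts all 8 measured members had a log2 ratio above 0, with a median of 0.33 beside 0.04 over all genes. The sum was 119.5 CPM at 2 months (3926 UMIs in 2508 cells) and 149 CPM at 18 months (855 UMIs in 491 cells), a log2 ratio of 0.32 (0.21 to 0.43). Gbp4 (2.10 and 4.02 CPM, log2 ratio 0.94) and Gbp8 (0.33 and 1.92 CPM, log2 ratio 2.52) were called higher, and by the same rule 7.28% of fibroblast genes were higher and 2.84% lower. Both rest on little RNA, with 69 and 23 UMIs of Gbp4 and 11 and 11 UMIs of Gbp8. The 2 abundant members gave firmer values: Gbp2 stood at 43.9 and 54.2 CPM (0.30, interval 0.12 to 0.48) and Gbp7 at 39.3 and 50.2 CPM (0.35, interval 0.16 to 0.54). The summed ratio was above 0 in each of the 3 fibroblast clusters with at least 50 cells in both libraries, from 0.24 to 0.50. It was 0.66 (0.48 to 0.83) among cells with Xist and no Y-linked UMIs and 0.07 (-0.10 to 0.23) among cells with Y-linked UMIs and no Xist. Related lists had calls in the same direction: 2 of 6 immunity-related GTPases (Iigp1 at 27.3 and 45.4 CPM, Gm4951 at 8.62 and 14.7 CPM), 2 of 9 interferon gamma targets (Cxcl10 and Cd274), 4 of 8 inflammasome genes and 4 of 12 type I interferon-stimulated genes, led by Oas1a (log2 ratio 1.89) and Ifi44 (log2 ratio 1.15). None of the 12 measured interferon gamma signalling genes was called.

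Smooth muscle cells showed the same sign with far fewer molecules, at 54.2 CPM (403 UMIs) and 75.9 CPM (106 UMIs), a log2 ratio of 0.49 (0.16 to 0.80). Gbp7 carried it, at 23.9 and 41.5 CPM (log2 ratio 0.79, interval 0.34 to 1.23), and was the only one of 3 measured members called, where 5.4% of smooth muscle genes were higher. Gbp2 stood at 21.1 and 25.8 CPM. Among cells with Y-linked UMIs and no Xist the sum ratio was -0.15, on 129 and 31 UMIs. Such cells made up 27.7% of the class at 2 months and 38.7% at 18 months, and cells with Xist only 54.3% and 35.3%. Pericytes gave 132 and 27 member UMIs and a ratio of -0.42 whose interval ran from -1.07 to 0.19.

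**Figure D3:**
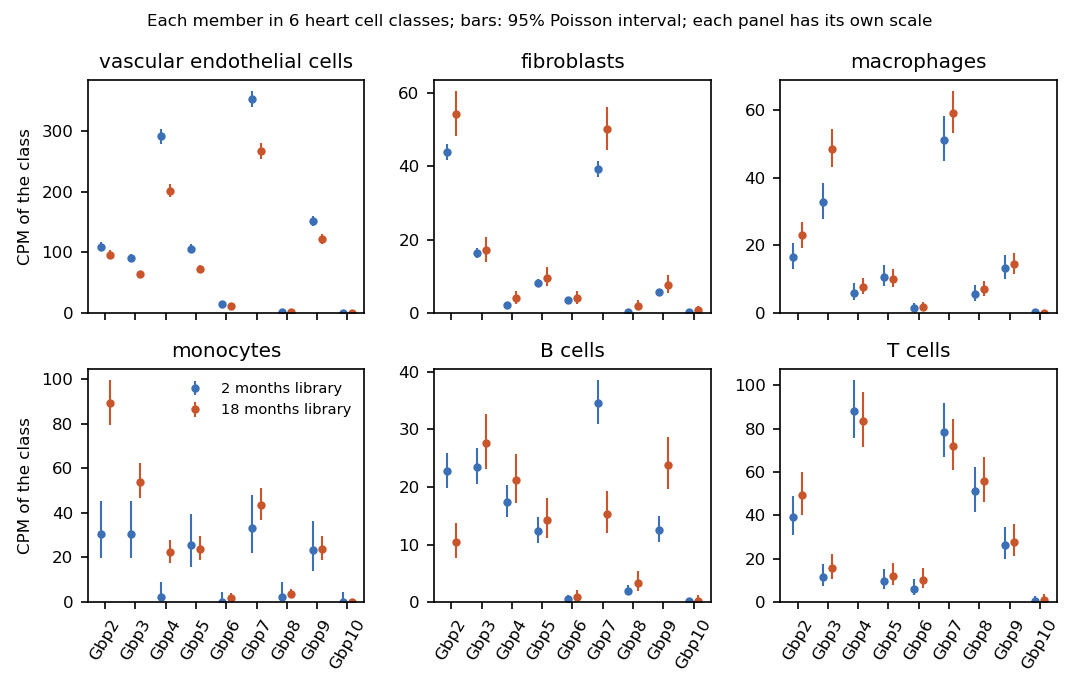
CPM of each Gbp gene in 6 heart cell classes at 2 months (blue) and 18 months (orange), with 95% Poisson intervals as bars and a separate linear scale per panel. In vascular endothelial cells Gbp7 and Gbp4 are highest and lower at 18 months, in fibroblasts Gbp2 and Gbp7 lead, in monocytes Gbp2 is higher at 18 months, and in B cells Gbp2 and Gbp7 are lower while Gbp9 is higher.

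Myeloid classes were higher at 18 months, except for dendritic cells. Macrophages held 138 CPM (618 UMIs) and 172 CPM (1065 UMIs), a log2 ratio of 0.32 (0.18 to 0.47). Gbp7 was their most abundant member at 51.3 and 59.3 CPM, and Gbp3 differed most, at 32.8 and 48.6 CPM (0.57, interval 0.28 to 0.86), short of the 1.5-fold rule that 4.03% of macrophage genes passed upward. The pathway lists gave single calls in macrophages. Cxcl10 (85.0 and 184 CPM) was the only one of 10 interferon gamma targets called higher, Il1b (931 and 1452 CPM) of 8 inflammasome genes and Rsad2 (30.1 and 49.6 CPM) of 12 type I interferon-stimulated genes. The type I list as a whole summed to 2711 and 2226 CPM with a median log2 ratio of -0.12, and none of 6 immunity-related GTPases was called. Monocytes held 148 CPM (121 UMIs in 61 cells) and 262 CPM (926 UMIs in 345 cells), a log2 ratio of 0.82 (0.55 to 1.11). Of 6 measured members 3 were called higher in monocytes, where 6.96% of genes were: Gbp2 at 30.6 and 89.2 CPM (1.54, interval 0.95 to 2.19), Gbp3 at 30.6 and 54.1 CPM (0.82, interval 0.22 to 1.49) and Gbp4 at 2.45 and 22.4 CPM (3.19, interval 1.29 to 6.26). The first Gbp4 value is 2 UMIs. Of 5 immunity-related GTPases measured in these cells only Iigp1 was called, higher at 1.22 and 25.8 CPM. Of 10 other interferon gamma targets 3 were called higher, with Cxcl9 at 9.79 and 93.7 CPM, and 2 lower, Ciita and Cxcl10, and the list summed to 1427 and 1301 CPM. Of 12 type I interferon-stimulated genes none was called higher and 2 lower, with sums of 3239 and 2247 CPM, where 5.19% of monocyte genes were lower.

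A few monocytes carried much of the Gbp RNA in both libraries. At 2 months 5 of 61 cells held 48.8% of all member UMIs and 68.0% of those of Gbp2. At 18 months 5 of 345 cells held 44.4% of all member UMIs, 57.8% of Gbp2 and 75.9% of Gbp4, and 1 cell alone held 62 of the 315 Gbp2 UMIs. Neutrophils held 89.5 CPM (106 UMIs) and 133 CPM (459 UMIs), a ratio of 0.58 (0.27 to 0.89), and only Gbp2 of 5 measured members was called, at 17.7 and 60.4 CPM (1.77, interval 1.12 to 2.49), where 6.57% of genes were higher. Of its 208 UMIs at 18 months, 45.2% came from 5 of 918 cells. The larger neutrophil cluster, led by Retnlg and Cxcr2, gave a smaller summed ratio of 0.24 (-0.11 to 0.59), and the cells of the other, led by Ngp and Camp, genes of immature neutrophils, numbered 40 and 14.

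Dendritic cells had the opposite sign, at 146 CPM (667 UMIs) and 99.7 CPM (343 UMIs), a ratio of -0.55 (-0.74 to -0.36). Of 7 measured members 4 were called lower, where 7.92% of dendritic cell genes were: Gbp2 (40.8 and 17.2 CPM), Gbp4 (11.4 and 6.11 CPM), Gbp5 (12.9 and 2.91 CPM) and Gbp8 (12.7 and 7.56 CPM). Gbp3 stood at 31.8 and 21.8 CPM (-0.54, interval -0.97 to -0.13), while Gbp7 (24.1 and 29.1 CPM) and Gbp9 (11.6 and 15.1 CPM) had ratios above 0. The 5 richest cells held 26.1% of the 2-month sum, and under the filter of the authors, which removes cells above 15000 UMIs, Gbp2 had a ratio of 0.55. Among cells with Xist and no Y-linked UMIs, 35 and 83 in number, the sum stood at 92.6 and 107 CPM.

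T cells and ILC2 showed little difference in their summed CPM. T cells held 312 CPM (614 UMIs) and 328 CPM (670 UMIs), a ratio of 0.07 (-0.09 to 0.23), with none of 8 measured members called. Gbp4 (88.3 and 83.6 CPM), Gbp7 (78.7 and 71.9 CPM) and Gbp8 (51.3 and 55.8 CPM) were their main members. The result differed by the sex marker of the cells: the sum was 218 and 454 CPM among 35 and 108 cells with Xist and no Y-linked UMIs, and 292 and 247 CPM among 147 and 116 cells with Y-linked UMIs and no Xist. In T cells 4 of 11 type I interferon-stimulated genes were called higher (Ifit1, Ifit3, Rsad2 and Mx1), where 5.69% of all T cell genes were, although the list summed to 825 and 708 CPM. Of 12 interferon gamma signalling genes none was called higher and 2 lower (Irf8 and Ifngr2), and of 9 other targets 3 higher and 1 lower, where 3.97% of T cell genes were lower. Ifng itself stood at 82.8 and 91.9 CPM (163 and 188 UMIs). ILC2 held 283 and 275 CPM, and Gbp7 was called higher in them, at 83.1 and 132 CPM (0.67, interval 0.16 to 1.20), where 3.04% of ILC2 genes were. Cells with Xist and no Y-linked UMIs were 39.7% of ILC2 at 2 months and 81.5% at 18 months; the part of this in the Gbp7 value was not tested.

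B cell sums stood at 126 CPM (1184 UMIs) and 117 CPM (564 UMIs), a ratio of -0.11 (-0.25 to 0.04). The median log2 ratio was 0.23 over the 7 measured members and 0.20 over all genes. TMM scaling shifts the log2 ratios of this class by -0.25, so the small difference holds on the CPM scale only. Single members moved apart. Gbp7 (34.6 and 15.3 CPM, ratio -1.17, interval -1.56 to -0.81) and Gbp2 (22.7 and 10.4 CPM, ratio -1.13, interval -1.61 to -0.68) were called lower, and Gbp9 (12.5 and 23.8 CPM, ratio 0.93, interval 0.54 to 1.31) higher. Among 67 and 170 B cells with Xist and no Y-linked UMIs, Gbp7 stood at 19.2 and 25.5 CPM (ratio 0.41, interval -0.84 to 1.85, on 7 and 26 UMIs) and the sum ratio was 0.35. Among 665 and 456 cells with Y-linked UMIs and no Xist, Gbp7 stood at 39.1 and 9.08 CPM and the sum ratio was -0.37. The first kind made up 7.18% and 17.1% of B cells. The background in this class was high, with 18.5% of genes higher and 6.46% lower, and the median depth was 8987 UMIs per cell at 2 months and 4349 at 18 months. The part of depth in these values was not tested.

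Hashtags divide the leukocytes of each heart library into 2 sets, Hashtag09 and Hashtag10 at 2 months and Hashtag11 and Hashtag12 at 18 months. Most other cells carried none. The sources used here do not say what the sets are, so their values are given side by side. Monocytes stood at 143 and 168 CPM in the 2-month sets and at 393 and 192 CPM in the 18-month sets, where the intervals of both 2-month sets overlapped that of Hashtag12 (Hashtag10 has 42 UMIs in 21 cells). Gbp2 in neutrophils stood at 19.6 and 13.5 CPM and then at 46.4 and 78.7 CPM, with no overlap of intervals between the ages. These intervals leave out the spread between cells, and 5 of 918 cells held 45.2% of the Gbp2 UMIs at 18 months. The neutrophil sum overlapped between the ages (111 and 56.4 CPM, then 98.7 and 168 CPM). Macrophage sums (155 and 134.5 CPM, then 150 and 193 CPM) overlapped too. Gbp3 in macrophages stood at 36.7 and 32.6 CPM and then at 44.7 and 54.0 CPM, with intervals that overlapped between the ages.

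Dendritic cell sums also overlapped, at 155 and 111 CPM and then 64.7 and 130.2 CPM. Gbp2 in dendritic cells was high in a single set, with 48.6 CPM under Hashtag09 beside 9.40 CPM under Hashtag10 and 11.9 and 22.6 CPM at 18 months. In B cells Gbp7 was likewise high in Hashtag09, at 35.3 CPM, beside 3.44 CPM in the 61 cells of Hashtag10 and 15.3 and 14.9 CPM at 18 months. T cells (305 and 342 CPM, then 339 and 330 CPM) and ILC2 (278 and 298 CPM, then 284 and 262 CPM) varied little. Gbp7 in ILC2 stood at 64.6 and 102 CPM and then at 126 and 133 CPM, with overlapping intervals.

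**Figure D4:**
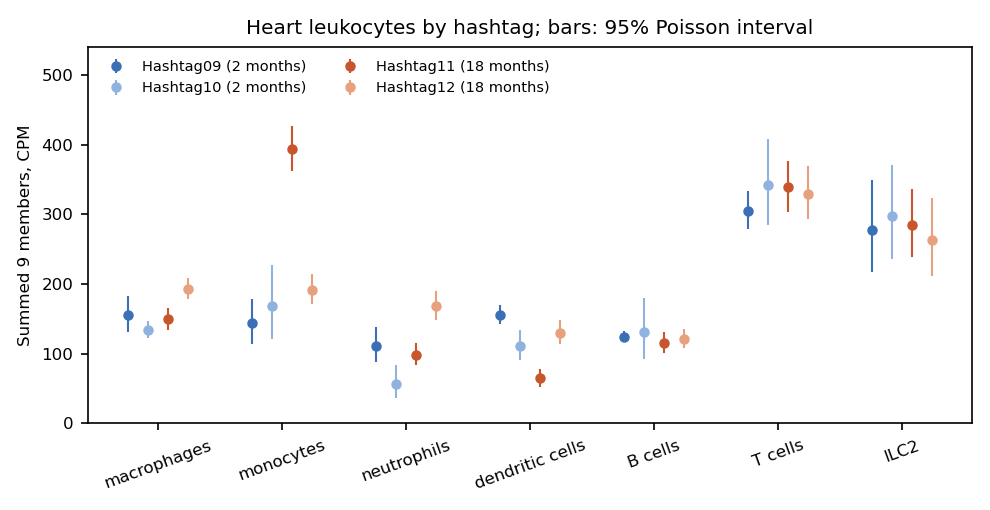
Summed CPM of the 9 Gbp genes in heart leukocyte classes for each hashtag, with Hashtag09 and Hashtag10 from the 2-month library, Hashtag11 and Hashtag12 from the 18-month library, and 95% Poisson intervals as bars. In monocytes Hashtag11 lies far above the other 3 sets, while the sets overlap between ages in macrophages, neutrophils, dendritic cells and T cells.

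Across 28 pairs of heart class and library with at least 50 cells, members varied together to different degrees. As a description over these classes, with classes sharing libraries and differing in depth, Pearson's r of log2(CPM + 1) was 0.78 for Gbp5 with Gbp9 and 0.76 for Gbp3 with Gbp5. The lowest value was 0.19, for Gbp3 with Gbp8. Of 11430 other genes, the 8 whose pattern was most like the summed Gbp level were Herc6 (r = 0.90), Atxn7, Rps6ka3, Slc25a30, H2-Q4, Phf14, Kdm6a and Tpp2 (r = 0.88).

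In the lymph node, a small cluster with interferon-stimulated markers held the most Gbp RNA of 19 cell states. It is labelled interferon-stimulated T cells, but the markers that named it include no T cell gene. Whether it is made of T cells was not tested. Its 175 cells, marked by Ifit3 and Isg15, summed to 1381 CPM (1070 UMIs, interval 1299 to 1466), and 68.0% of its cells held at least 1 member UMI when thinned to 1000 UMIs, beside 38.2% in regulatory T cells and 6.12% in the lowest state. Gbp7 (298 CPM), Gbp9 (276 CPM), Gbp4 (267 CPM) and Gbp2 (216 CPM) led, followed by Gbp8 (103 CPM). Gbp10, at or below 18.7 CPM in every other state, stood at 63.2 CPM there. Of these cells 58.3% carried Hashtag1. Igtp (444 CPM) and Irgm1 (258 CPM) of the immunity-related GTPases were also highest in this state, while Ifng stood at 9.03 CPM.

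Regulatory T cells came next among the named states, at 518 CPM (2626 UMIs in 1939 cells, interval 498 to 538). Over the 8 hashtags they ranged from 411 to 559 CPM, with a median of 541, and lay above gamma delta T cells in 3 of 5 hashtags and above follicular helper T cells in 6 of 8. Gamma delta T cells (472 CPM), naive-like CD4 T cells (459 CPM) and memory CD4 T cells (416 CPM) followed, each with an interval that overlapped its neighbour. Gzmk-expressing CD8 T cells, a state known from aged lymphoid tissue, stood at 365 CPM (1670 UMIs in 1483 cells), naive-like CD8 T cells at 302 CPM, follicular helper T cells at 277 CPM and cycling cells at 253 CPM. B cells held 224 CPM and myeloid cells 249 CPM. Gbp7 led in regulatory T cells (114 CPM) and Gzmk CD8 T cells (78.8 CPM), Gbp4 in follicular helper T cells (59.1 CPM) and Gbp9 in naive-like CD4 T cells (90.5 CPM).

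Unnamed clusters lay at both ends of the order. The lowest, led by Cst3 and Ifi205, held 47.3 CPM of the 9 members (18 UMIs in 51 cells). Next above it, a cluster led by Siglech and Cox6a2 held 94.2 CPM (34 UMIs in 75 cells). An unnamed cluster led by Apol7c, Fscn1 and H2-M2 stood out by its mix: Gbp2 alone gave 344 of its 745 CPM, and Gbp7 13.1 CPM. The chromosome 3 members held 64.1% of member UMIs in that cluster, the largest share of the 19 states, and 41.3% in follicular helper T cells. The smallest shares, 5.56% and 29.4%, were in the clusters led by Cst3 and by Siglech, on 18 and 34 UMIs. Another unnamed cluster, led by Gm26917 and Malat1, held 751 CPM but had a median depth of only 889 UMIs.

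**Figure D5:**
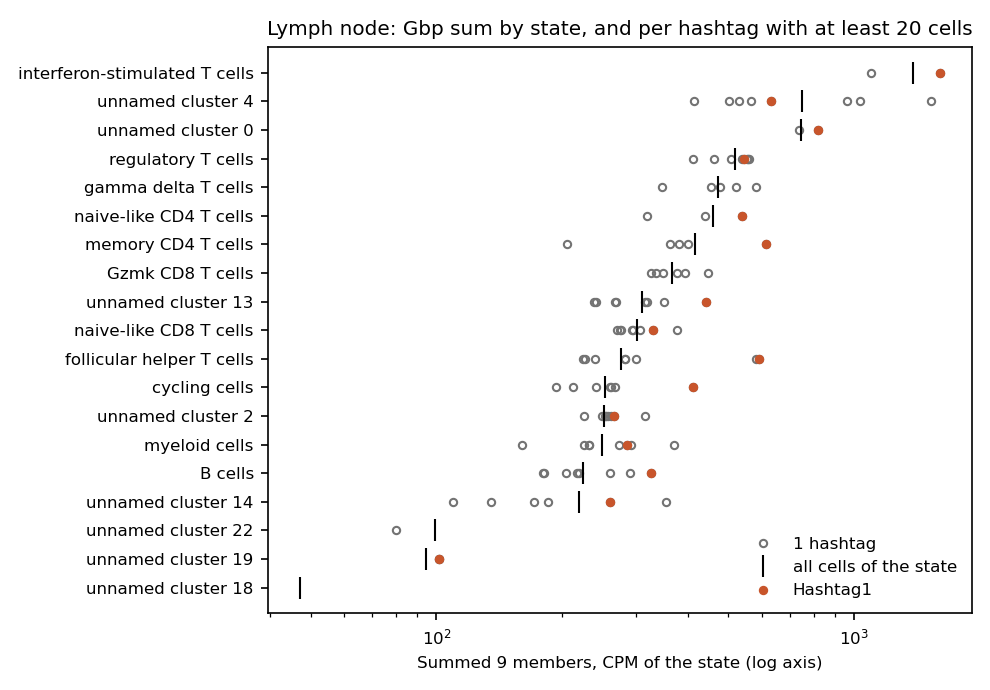
Summed CPM of the 9 Gbp genes (log axis) in each lymph node state, with black bars for all cells of the state, open circles for each hashtag with at least 20 cells and filled circles for Hashtag1. The state labelled interferon-stimulated T cells lies highest at 1381 CPM, and follicular helper T cells show a pair of hashtags at 593 and 583 CPM above the rest.

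Hashtags differed within some states. Follicular helper T cells stood at 593 CPM under Hashtag1 (34 cells) and 583 CPM under Hashtag2 (24 cells), and between 225 and 299.9 CPM under the other 6. Gbp2 accounted for 157 CPM of the Hashtag2 value and Gbp4 for 139 CPM of the Hashtag1 value. Naive-like CD8 T cells ranged from 270 to 376 CPM and B cells from 179.5 to 327 CPM. Over all cells Hashtag1 held 511 CPM and the other 7 between 299 and 353 CPM. Averaged over the 8 states with at least 20 cells in every hashtag, the values ran from 312 to 428 CPM, with Hashtag1 at 428 CPM and Hashtag4 at 427 CPM. The Hashtag4 value rests on the shallow cluster led by Gm26917, where 26 cells stood at 1525 CPM: without that cluster, a choice made after seeing the data, the means ran from 270.1 CPM under Hashtag4 to 398 CPM under Hashtag1.

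Over the 19 lymph node states, the genes most like the summed Gbp level among 9298 were Ddx60 (r = 0.93), Rnf114 (r = 0.91), Rtp4, Parp14, Mov10, Ifit3, C730034F03Rik and Pvr (r = 0.85). These values are a description only, since the states share a library and differ in depth. Ifit3 is also among the markers that named the state with the highest sum. Clonotype sharing could be read for 7032 of 9818 cells, from a T cell receptor library of the same pool. A cell counted as sharing if another kept cell of the same hashtag had its clonotype. Cells whose clonotype recurred only under another hashtag counted as alone. Gzmk CD8 T cells that shared a clonotype in this sense stood at 370.5 CPM and cells alone in theirs at 346 CPM, with overlapping intervals. The shared cells were above in 4 of 4 hashtags with enough cells, but in Hashtag7, the largest set, the values were 338.2 and 337.7 CPM. In follicular helper T cells this held in 2 of 4 hashtags, in regulatory T cells in 2 of 6, and in memory CD4 and naive-like CD8 T cells in 0 of 1 each.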

How the data were processed

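Single-cell RNA was measured in 2 heart libraries and 1 lymph node library. Clonotypes were taken from a separate T cell receptor library of the lymph node pool. The deposited matrices hold counts of UMIs per gene and cell barcode, made with Cell Ranger 3.1.0 on mm10 per the submitters' processing notes. The authors' deposited text names Seurat 4.0.6 and filters of 200 genes, 15000 UMIs and 8% mitochondrial reads for hearts, and 200 genes, 12500 UMIs and 10% for lymph node cells. Whether counting used strand is not given by these sources.

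From these counts, cells were kept if they had 200 genes or more and no more than 15% of UMIs from mitochondrial genes. Called doublets (474 and 207) were removed from the hearts. The caller marked 0 of 12908 lymph node cells and thus did not work there, so 1781 cells with several hashtags and 1309 with none were left out instead. A hashtag needed 50 UMIs and 3 times the next. Clustering in Scanpy 1.11.5 (Python 3.11.15) used 2000 variable genes, 30 principal components, 15 neighbours and Leiden resolution 1, without members or listed pathway genes except the stress list. Clusters were named from listed markers, with naming limits set after the clusters were seen. UMIs were summed per class and library, with exact 95% intervals that cover counting error only. UMIs remove PCR copies, but cells of 1 library are not replicates, so no test between ages was made. Where a gene has no UMI, the floor is 3 counts. TMM scaling used edgeR 4.0.16.

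The members and lists were chosen with earlier results of these data known. All 9 members were described in each class with at least 50 cells per library. The 8 other genes with the most similar pattern were named, with log2(CPM + 1) in that measure, and from each gene list the called genes with the largest ratios were named as examples. Iigp1, Irf1, Ifngr1 and Ifng were named outside that rule after their values were seen. So were Rsad2, Isg15 and Oas1a in endothelial cells, the uncalled dissociation stress genes and the lymph node genes. Alternatives were other cell filters, doublets kept, TMM scaling, thinned cells, subtracted free RNA, equal cluster weights, cells by Xist and Y-linked UMIs, and no UMI minimum. Hashtag pairs, the endothelial class without its shallowest cluster and fibroblasts with an unnamed cluster led by Wif1 were added after seeing the data.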

Additional observations from a re-analysis of the deposited data

Results flagged for a closer look

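The summed Gbp level differed in direction between heart classes, each with an interval that left out 0. The log2 ratio of 18 over 2 months was -0.42 in vascular endothelial cells and -0.55 in dendritic cells, against 0.32 in fibroblasts, 0.49 in smooth muscle cells, 0.32 in macrophages, 0.82 in monocytes and 0.58 in neutrophils. The difference between classes was not tested, since each age has 1 library.

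In the lymph node, 3 of 14 groups of hashtags held a value set apart from the rest by an outlier rule. Its usual chance rate of about 1 in 20 assumes independent values of like precision. Hashtags rest on unequal cell numbers, and 1 group, all lymph node cells, contains the others. The chance rate here is therefore not known. Hashtag1 stood at 412 CPM among cycling cells and at 511 CPM over all lymph node cells. Hashtag2 stood at 316 CPM in the unnamed cluster led by Klre1 and Klra7, on 50 UMIs in 26 cells. The interval of that value, 235 to 417 CPM, overlapped those of all other hashtags in the cluster. Hashtag1 also gave 58.3% of the cells labelled interferon-stimulated T cells, and these held 716 of the 2486 member UMIs of Hashtag1.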

How the results depend on the processing

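No paired analysis was possible because each age has 1 library. The endothelial sum stayed below 0 under all 9 alternatives tried for it, with log2 ratios from -0.49 to -0.33, and the monocyte sum above 0 under all 8, from 0.39 to 1.29. Hashtag pairs, part of the 12 alternatives of some classes below, were not tried for monocytes. Under the 8 alternatives without such pairs, the macrophage and neutrophil sums also stayed above 0. The fibroblast sum ran from 0.07 to 0.66 over 9. The cardiomyocyte sum, from which no Gbp expression can be read, ran from 0.012 to 1.89 over 8. Sums of the remaining classes changed sign under some alternatives: B cells in 1 of 12, T cells in 3 of 12 and dendritic cells in 2 of 12. Macrophages and neutrophils did so in 1 of 12 each. ILC2 did in 3 of 8, pericytes in 2 of 8 and smooth muscle cells in 1 of 8. The causes were not tested.

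Counts of called pairs are given here and below without the share over all genes under the same setting. With the authors' cell filter the number of member and class pairs called lower was 2 in place of 6, and in dendritic cells the ratio was 0.55 for Gbp2 and 0.11 for Gbp4. TMM scaling gave B cells -0.35. Thinning to 1000 UMIs, which leaves fewer UMIs, gave -0.33 in endothelial cells and 0.53 in fibroblasts, with 2 pairs higher and 2 lower. Weighting clusters equally gave neutrophils 0.24 (interval -0.07 to 0.55).

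Among cells with Xist and no Y-linked UMIs the sums were 0.66 in fibroblasts, 0.60 in macrophages, 0.35 in B cells, 1.05 in T cells and 0.21 in dendritic cells, with 17 pairs higher and 3 lower. There Gbp2 (1.15) and Gbp5 (0.057) in dendritic cells and Gbp7 in B cells (0.41) had the opposite sign. Among cells with Y-linked UMIs and no Xist they were -0.49 in endothelial cells, 0.067 in fibroblasts, 0.17 in macrophages, 1.22 in neutrophils, -0.37 in B cells, -0.24 in T cells and -0.15 in smooth muscle cells, with 5 pairs higher and 10 lower. There Gbp8 in fibroblasts (-0.15) and Gbp7 in smooth muscle cells (-0.049) had the opposite sign.

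The hashtag pairs were chosen after seeing the data. From Hashtag09 to Hashtag11 the sum was -0.051 in macrophages and -0.17 in neutrophils. From Hashtag10 to Hashtag11 it was 0.15 in macrophages, and Gbp2 in dendritic cells (0.34), Gbp7 in B cells (2.16) and Gbp9 in B cells (-0.32) had the opposite sign. From Hashtag10 to Hashtag12 it was 0.52 in macrophages, 1.58 in neutrophils and 0.23 in dendritic cells, and Gbp2 in dendritic cells (1.27), Gbp7 in B cells (2.11) and Gbp9 in B cells (-0.15) had the opposite sign. Thinning left 12 of 19 lymph node states within the interval of their level.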
